A study of Mus musculus with 2 samples.

Results

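The CCN family comprises secreted matricellular proteins, which sit in the extracellular matrix, bind integrins and other surface receptors and tune how cells respond to growth factors rather than building the matrix themselves. Members share a modular layout of cysteine-rich domains, and CCN5 differs from the others in lacking the C-terminal cystine-knot domain. In fibroblasts Ccn1 (also Cyr61) and Ccn2 (also Ctgf) are rapidly induced genes and classical targets of the mechanosensitive YAP/TAZ-TEAD and SRF factors, and Ccn2 is widely used as a marker of the TGF-β response and of fibrosis.

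Accessibility of 5 family genes (Ccn1 to Ccn5) was followed in ATAC-seq libraries of primary murine cardiac fibroblasts, in which Tn5 transposase tags open DNA. The NC library came from fibroblasts treated with TGF-β, with a scrambled siRNA according to the study's legend, and the SiPiezo2 library from TGF-β-treated fibroblasts with an siRNA against Piezo2, which encodes a mechanosensitive ion channel. Each condition had 1 library, so no difference below has a replicate check and none was tested. The labels give no mouse strain, age or TGF-β dose; the study states the dose and duration, which are not repeated here, and a C57BL/6 J background for its mouse strains. The series description names a Cre-mediated Tet3 knockout where the labels name SiPiezo2; the values below rest on the labels.

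Members were taken from the deposited peak table by gene symbol, with the addition of intergenic peaks that the table places nearest to the transcription start site (TSS) of a member. This gave 30 of 63316 peaks, of which 11 carried a member's symbol and 19 were intergenic. Ccn1 had 5 peaks, Ccn2 had 2, Ccn3 had 6, Ccn4 had 8 and Ccn5 had 9. No peak (0) carried the symbol of Ccn6, the remaining family gene. Positions are on GRCm39, whose gene coordinates match the table, although the processing notes name mm10.

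The value of a peak is the authors' normalized read density, and log2 ratios are log2((SiPiezo2 + 1)/(NC + 1)). A peak or gene is called lower where this ratio is below 0.66 of NC and higher where it is above 1.5, whereas percentages of NC are of the densities themselves. Read numbers in each 2000-bp window could be worked back from the densities, 4615335 in NC and 2754046 in SiPiezo2 over all peaks with medians of 58 and 36, and the 95% exact binomial (Clopper-Pearson) intervals from them cover counting error only. Peaks called in both libraries spread beyond counting error by an extra SD of 0.23 on the log2 scale, and a widened interval adds that spread.

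Of the fibroblast markers, 5 of 5 genes (Col1a1, Col1a2, Pdgfra, Tcf21 and Ddr2) had peaks, with a median log2 ratio of -0.16. Peaks were also present at 2 of 3 cardiomyocyte genes, 3 of 3 endothelial genes and 1 of 3 leukocyte genes (Ptprc), with no peak at Myh6, Cd68 and Adgre1. The endothelial gene Cdh5 was higher, with a density of 47.7 in NC and 78.0 in SiPiezo2 (log2 ratio 0.70, interval 0.32 to 1.08), whereas Pecam1 at 0.0068 and Tek at -0.063 were called neither way and the median of the endothelial genes was 0.0068. In accessibility data a peak does not show that its gene is transcribed, and the part of other cell types in the results below was not tested.

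The promoter of Ccn1, the family gene with the lowest log2 ratio when summed over its own peaks, is shown because it was the only member promoter with a sequence at hand. Ccn1 also has a promoter peak, whose position is given on another build than the sequence. RefSeq promoter sequences were matched for 1 of the 5 members, Ccn1, on GRCm38.p6 at chr3:145649986-145650235, minus strand. The 250 bases before the TSS read 5′ to 3′ as follows, with the TEAD core in capitals.
Ccn1: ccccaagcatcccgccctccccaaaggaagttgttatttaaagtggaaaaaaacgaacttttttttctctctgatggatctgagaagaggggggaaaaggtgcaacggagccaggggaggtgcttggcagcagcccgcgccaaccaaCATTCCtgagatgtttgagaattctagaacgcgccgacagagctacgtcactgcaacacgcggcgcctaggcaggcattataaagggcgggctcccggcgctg
Searched on both strands, GGAATG (TEAD) matched 1 time, from base -103 relative to the RefSeq TSS, and 12.6% of 32851 promoter windows of this length hold a match. TGANTCA (AP-1) and CAGACA (SMAD) had 0 matches, against 6.75% and 17.1% of all windows with a match, and the CArG box of SRF had 0, against 1.47%. A match describes letters and not binding.

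Across the family, densities as the authors normalized them were lower in the SiPiezo2 library at most peaks. Of the 30 member peaks, 29 had a log2 ratio below 0, 12 were called lower and 0 were called higher, where 63.7% of all peaks in the table were below 0, 13.5% were called lower and 3.21% higher. The number of member peaks below 0 was 28 with densities at the same total (55.1% of all peaks), 26 with reads at the same total (48.0%) and 25 with median-of-ratios scaling, which by construction sets the median of all peaks to 0, and 11 of the 30 counting intervals included 0. Each of the 5 genes held at least 1 of the 12 lowered peaks, as did 35.3% of the 11475 genes with as many peaks as a member (from 2 to 9), and at Ccn3 the widened intervals of the lowered peaks included 0. The median log2 ratio was -0.49 over the members and -0.13 over all peaks. Member peaks were also stronger than most, with 25 of 30 above the median density of the table and 13 in its strongest 10%. The peak above 0 in the authors' densities was an intronic peak of Ccn4 that was level between libraries. These peaks are not replicates, since peaks of a gene share its locus and neighbouring windows share reads.

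**Figure D1:**
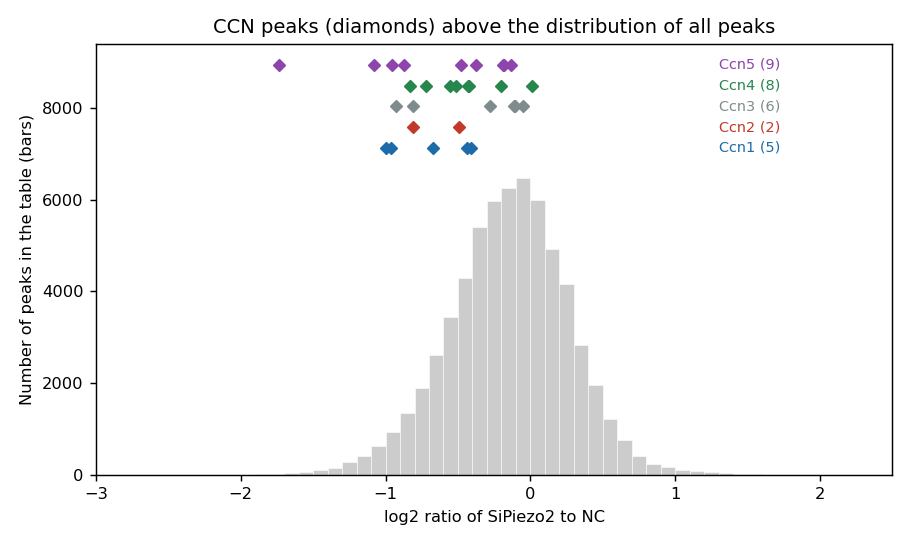
Log2 ratios of the CCN peaks (diamonds, 1 row per gene with its number of peaks) above the histogram of log2 ratios of all 63316 peaks in the table (grey bars, number of peaks per bin of 0.1). Of 30 CCN peaks, 29 lie below 0 and the lowest, of Ccn5, lies at -1.74.

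The library in which a peak had been called moved with the ratio. Of the members, 16 peaks were called in both libraries, 14 in NC only and 0 in SiPiezo2 only, while the table holds 21398, 40553 and 1365 peaks of these groups. Peaks called in both libraries had a median of -0.46 over the 16 members, all below 0, and of 0.0025 over all such peaks, of which 49.7% were below 0. Most of these 16 belonged to the loci of Ccn4 and Ccn5, so their median mainly describes those loci. Peaks called in NC only had medians of -0.74 over the 14 members and -0.23 over all such peaks. Peaks called in NC only passed through the library in which they are high, so their median is a description. Of the 12 lowered member peaks, 8 were among the 14 called in NC only, where 18.3% of all such peaks were called lower, and 4 were among the 16 called in both libraries, where 5.36% were. Of the 30 counting intervals, 19 lay below 0 and 0 above it, where 11.4% of all peaks had an interval below 0, and 12 lay below the median of all peaks, against 6.5%. Of the widened intervals, chosen after seeing the data, 11 lay below 0 (6.4% of all peaks) and 8 below that median (3.5%). Intervals are narrower at strong peaks, and the members were stronger than most.

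**Figure D2:**
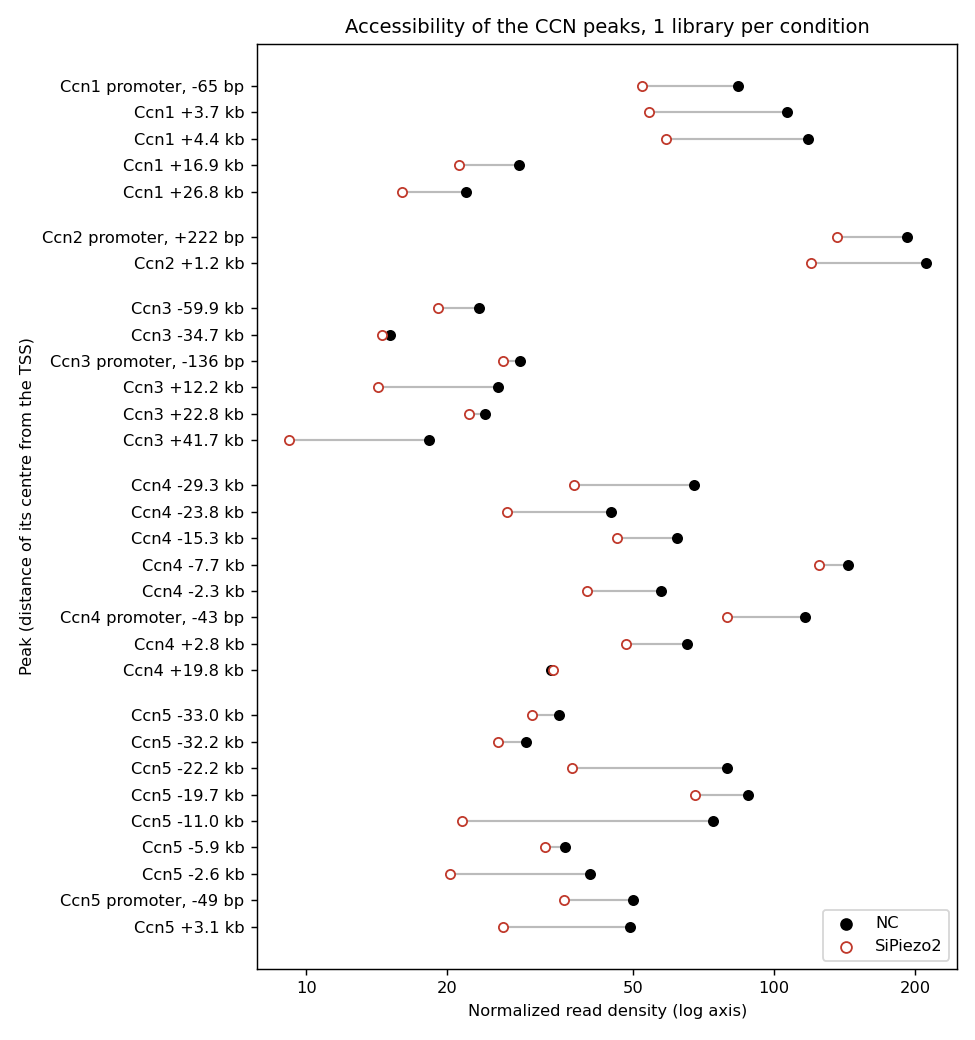
Normalized read density (log axis) of the 30 CCN peaks in the NC library (black) and the SiPiezo2 library (open red), ordered within each gene by distance of the peak centre from the TSS. The open point lies left of the black one at 29 peaks, and the 2 points nearly coincide at the Ccn4 peak 19.8 kb downstream.

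When densities were summed over the peaks carrying a gene's symbol, 3 of the 5 genes were called lower, against 6.21% of the 16934 genes with a peak (1.54% were called higher). Of these 3 calls, that of Ccn1 remained with densities at the same total and with median-of-ratios scaling, and those of Ccn2 and Ccn5 were lost under both; all peaks of Ccn1, however, were called in NC only and entered the table through the library in which they are high. Ccn1 ranked at percentile 1.52 of all genes from the lowest log2 ratio, Ccn5 at 4.53, Ccn2 at 4.89, Ccn4 at 14.8 and Ccn3 at 46.8. The counting intervals of Ccn1, Ccn2, Ccn4 and Ccn5 lay below the median of all genes, -0.093, and that of Ccn3 included it. Intervals of Ccn1, Ccn2 and Ccn5 overlapped one another, so their order is not resolved at this depth.

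Ccn1 encodes a growth-factor-inducible protein that promotes adhesion and, in fibroblasts, can trigger senescence. Its gene (ENSMUSG00000028195, chromosome 3 from 145352731 to 145355736, minus strand) had a summed density of 308 in NC and 165 in SiPiezo2, a log2 ratio of -0.90 (interval -1.11 to -0.69 from 821 and 244 reads). The NC value stood well above the SiPiezo2 value at each of its own peaks. At the promoter peak, from 145355690 to 145355913, density was 83.7 in NC and 52.2 in SiPiezo2 (220 and 78 reads), a log2 ratio of -0.67 (interval -1.06 to -0.29). It reached 177 bp upstream and 46 bp downstream of the TSS in the table, a span that would include the TEAD core of the printed sequence if the start sites of the table and of RefSeq, which are on different builds, are the same base; this was not tested. It was called in NC only.

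Lower log2 ratios at Ccn1 lay beyond its 3′ end, at peaks that, like its promoter peak, were called in NC only. A peak centred 3705 bp from the TSS had densities of 107 in NC and 54.1 in SiPiezo2 (log2 ratio -0.96, interval -1.34 to -0.60), and one at 4404 bp had 118 and 58.6 (-0.997, interval -1.36 to -0.65). Their SiPiezo2 densities were 50.8% and 49.7% of those in NC, but their windows overlap and they are not separate measurements. The intervals of the promoter and the downstream peaks overlapped. Farther downstream, intergenic peaks at 16.9 kb and 26.8 kb were weak, with 28.5 and 22.0 in NC against 21.2 and 16.0 in SiPiezo2, and their intervals included 0.

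Ccn2 encodes connective tissue growth factor, the family member most closely tied to TGF-β-driven fibrosis. Its gene (ENSMUSG00000019997, chromosome 10 from 24471340 to 24474581, plus strand) had the 2 strongest peaks of the family in NC and the highest sum over peaks with its own symbol; with intergenic peaks added, the NC sums of Ccn4 (591) and Ccn5 (481) were higher than its 403. The promoter peak, from 24471192 to 24471932, had a density of 192 in NC and 136 in SiPiezo2 (547 and 190 reads). The SiPiezo2 density was 71.0% of that in NC there, a log2 ratio of -0.49 (interval -0.74 to -0.25) that did not reach the lower threshold. In intron 3, 1191 bp from the TSS, density was 211 in NC and 119.7 in SiPiezo2, a log2 ratio of -0.81 (interval -1.07 to -0.56), which was called lower.

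The log2 ratio was lower at each next peak along the gene. The table assigns the next peak, which lies in the Ccn2 body 2221 bp from the TSS, to the promoter of Gm15270, an overlapping gene on the opposite strand, so it is no member by symbol. Density there was 169.6 in NC and 70.4 in SiPiezo2 (467 and 101 reads), a log2 ratio of -1.26 (interval -1.58 to -0.94). Just past the 3′ end of Ccn2, 4144 bp from its TSS, an intergenic peak nearest to the Gm15270 TSS had 120.2 in NC and 34.9 in SiPiezo2 (316 and 52 reads), a log2 ratio of -1.75 (interval -2.21 to -1.33). From the promoter to this peak the SiPiezo2 density was 71.0%, 56.8%, 41.5% and 29.1% of that in NC. Both libraries gave a call at the first 2 peaks, but the 2 deepest were called in NC only and so entered the table through the library in which they are high, which limits what their order shows. Neighbouring windows overlap in this series, as do the counting intervals of neighbouring peaks, so the single steps are not resolved at this depth. The first and last peak have windows that do not overlap. Their widened intervals were -1.003 to 0.022 and -2.37 to -1.13, and since the last peak was singled out as the deepest, this is a description.

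The nearest peaks outside this stretch had intervals that included 0. At 5976 bp upstream of the TSS, in an intron of Gm15270, density was 24.4 in NC and 22.3 in SiPiezo2 (log2 ratio -0.13, interval -0.77 to 0.50), and at 14.5 kb downstream it was 25.9 and 36.5 (0.48, interval -0.062 to 1.02). With the body and downstream peaks included, a choice made after seeing the data, the summed log2 ratio of Ccn2 went from -0.65 (interval -0.83 to -0.48; density 403 in NC and 256 in SiPiezo2) to -0.94.

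**Figure D3:**
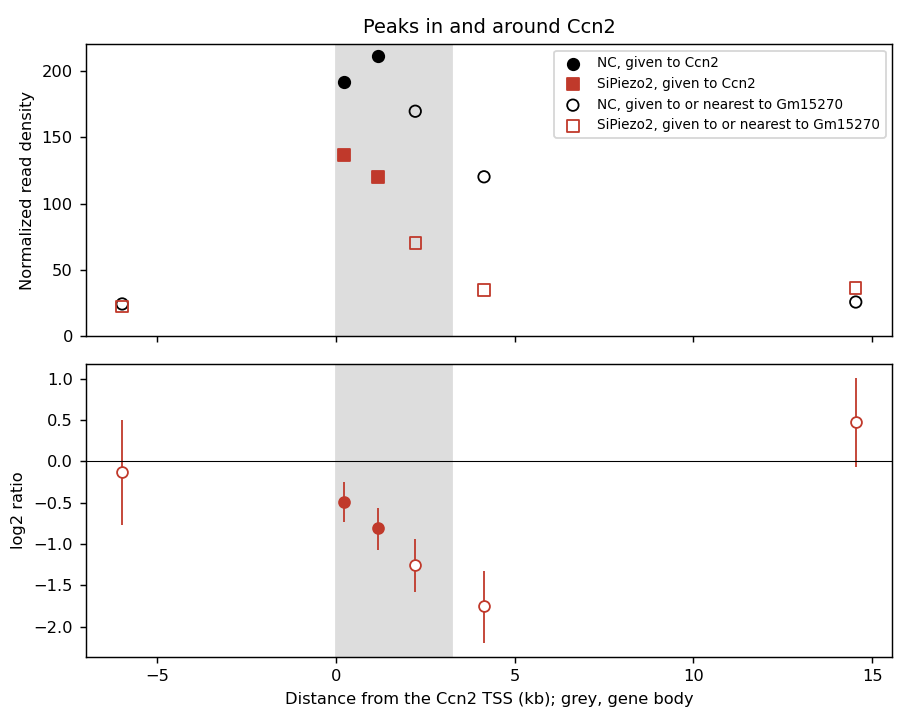
Normalized read density (top; NC black circles, SiPiezo2 red squares) and log2 ratio with 95% counting intervals (bottom) at peaks around Ccn2, by distance from its TSS in kb; filled symbols carry the Ccn2 symbol, open ones are given to or nearest to Gm15270, and the gene body is grey. The log2 ratio goes from -0.49 at the promoter to -1.75 past the 3′ end, with flanking peaks near or above 0.

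Ccn5 (also Wisp2) encodes the member without the cystine-knot domain, which is known to counteract CCN2 in cardiac fibrosis. Its gene (ENSMUSG00000027656, chromosome 2 from 163662809 to 163675066, plus strand) had a summed density of 99.1 in NC and 61.9 in SiPiezo2, a log2 ratio of -0.67 (interval -1.03 to -0.33), and was called lower. That call rests on its intron 2 peak, which was called in NC only. With the promoter peak alone Ccn5 was at -0.48 and not called. Among peaks with the Ccn5 symbol the promoter peak is the strongest and the only one called in both libraries, but some of its intergenic peaks were stronger. The promoter peak had 49.99 in NC and 35.6 in SiPiezo2 (log2 ratio -0.48, interval -0.96 to -0.012), inside 1.5-fold, and the intron 2 peak at 3150 bp had 49.1 and 26.3 (-0.88, interval -1.42 to -0.35).

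The lowest log2 ratio of the family belonged to an intergenic peak 11.04 kb upstream of Ccn5, from 163651484 to 163652059. Density there was 74.0 in NC and 21.5 in SiPiezo2 (186 and 33 reads), a log2 ratio of -1.74 (interval -2.32 to -1.20), at percentile 0.076 of all peaks. The SiPiezo2 density was 29.1% of that in NC, the lowest share of the 30 members, and the peak was called in NC only. A peak 22.2 kb upstream, from 163640271 to 163640911, had 79.3 in NC and 37.0 in SiPiezo2 (-1.08, interval -1.53 to -0.65), and one 2582 bp upstream had 40.3 and 20.3 (-0.96, interval -1.58 to -0.37). These lowered peaks alternated with others that were not called lower. At 5880 bp upstream density was 35.7 in NC and 32.4 in SiPiezo2 (-0.14, interval -0.66 to 0.38), and at 19.75 kb it was 88.1 and 67.6 (-0.38, interval -0.73 to -0.034). The furthest upstream peaks, at 33.0 kb and 32.2 kb with overlapping windows, had log2 ratios of -0.18 and -0.19. The interval of the peak at 11.04 kb, counting or widened, did not overlap those of the peaks at 5880 bp and 19.75 kb on either side, but these were called in both libraries and the peak at 11.04 kb, singled out as the lowest of the 30, in NC only, so the comparison is a description.

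Ccn4 (also Wisp1) encodes a protein first found as a target of Wnt signalling. Its gene (ENSMUSG00000005124, chromosome 15 from 66763169 to 66795050, plus strand) had a summed density of 215 in NC and 161 in SiPiezo2, a log2 ratio of -0.42 (interval -0.64 to -0.20) inside 1.5-fold. The promoter peak had 117 in NC and 79.1 in SiPiezo2 (317 and 115 reads), a log2 ratio of -0.55 (interval -0.87 to -0.24). In intron 1 density was 65.3 in NC and 48.2 in SiPiezo2 (-0.43, interval -0.85 to -0.026), and in intron 2, 19.8 kb from the TSS, it was 33.3 and 33.6 (0.012, interval -0.51 to 0.53). The intron 2 peak was the only one of the 8 peaks of the locus that was not below 0.

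Upstream of Ccn4, 5 intergenic peaks, each called in both libraries, formed a row from 29.3 kb to 2285 bp before the TSS. The lowered ones were the most distant. At 29.3 kb density was 67.5 in NC and 37.4 in SiPiezo2 (log2 ratio -0.83, interval -1.29 to -0.39), and at 23.8 kb it was 44.8 and 26.9 (-0.72, interval -1.27 to -0.19). The strongest of the row, 7708 bp before the TSS, had 144 in NC and 125 in SiPiezo2 (404 and 177 reads) and a log2 ratio of -0.20 (interval -0.47 to 0.054). Between the most distant and the strongest peak the intervals overlapped narrowly, so this difference along the locus is not resolved at this depth.

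Ccn3 (also Nov), whose product has been described as an antagonist of CCN2 in fibrosis, was the weakest locus and the one whose promoter interval from counting error included 0; the widened intervals of the Ccn2 and Ccn5 promoters included 0 as well. Its gene (ENSMUSG00000037362, chromosome 15 from 54609098 to 54617435, plus strand) had 1 peak of its own, with a density of 28.6 in NC and 26.3 in SiPiezo2 (69 and 42 reads), a log2 ratio of -0.12 (interval -0.71 to 0.46). That interval includes a loss of the size seen at the Ccn1 promoter. Of its 5 intergenic peaks, all called in NC only, 2 were called lower, against 16.6% of all distal intergenic peaks and 18.3% of all peaks called in NC only. At 12.2 kb downstream density was 25.7 in NC and 14.2 in SiPiezo2 (-0.81, interval -1.57 to -0.096), and at 41.7 kb it was 18.3 and 9.17 (-0.93, interval -1.89 to -0.042). These rested on 23 and 15 reads in SiPiezo2, and their widened intervals included 0.

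**Figure D4:**
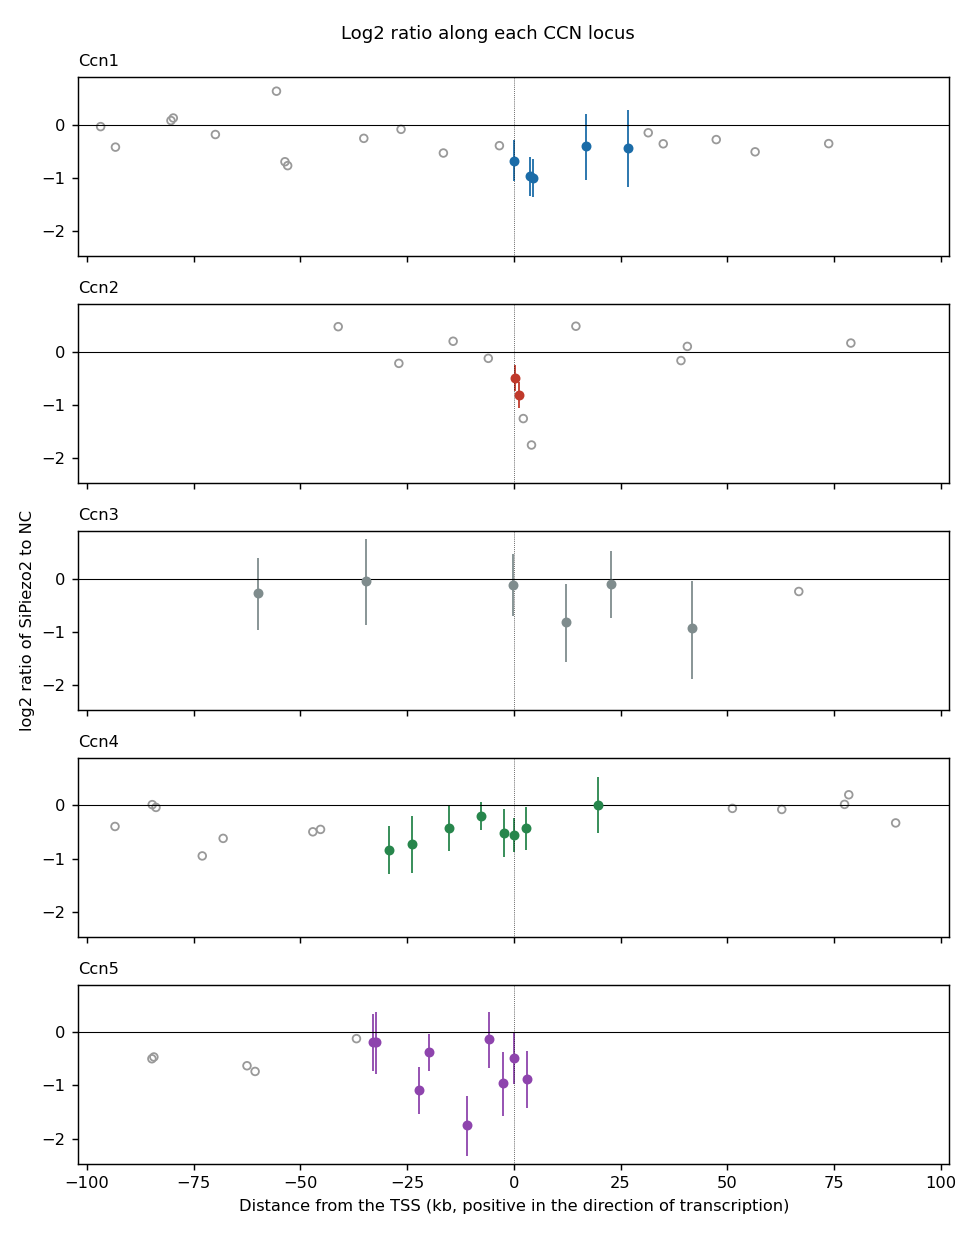
Log2 ratio of SiPiezo2 to NC by distance from the TSS of each CCN gene (kb, positive in the direction of transcription), with CCN peaks as filled points with 95% counting intervals and other peaks within 100 kb as open points. Lowered CCN peaks lie from 29.3 kb upstream at Ccn4 to 41.7 kb downstream at Ccn3, and the lowest open points lie in and just past Ccn2.

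The lowered peaks lay mostly outside promoters, as lowered peaks did across the table. Of the 12 lowered member peaks, 11 were outside the promoter class, where 93.7% of all lowered peaks and 85.4% of all peaks were. With intergenic peaks included, the lowest peak was not a promoter peak in 5 of 5 genes, where this held for 73.8% of the 5566 genes with a promoter peak and another peak, so the count is not particular to the family. Among peaks with a gene's own symbol it held for 3 of the 4 members with more than 1 peak (68.5% of 4666 genes), and the promoter peak was the lowest at Ccn4. All 5 promoter peaks were below 0, from -0.67 to -0.12 with a median of -0.49. The 9251 promoter peaks of the table had a median of -0.030, and 4966 of them were below 0. The promoter peak of Ccn3 came above 0 with median-of-ratios scaling (0.018) and with reads at the same total (0.028). The promoter of Ccn1 was the 1 member promoter called lower, against 5.86% of all promoter peaks, and it came inside 1.5-fold with densities at the same total (-0.58) and with median-of-ratios scaling (-0.53). Among the 19 intergenic members 7 were called lower, against 16.6% of all distal intergenic peaks, and their median was -0.42 against -0.18. With the intergenic peaks added to each gene's sum, Ccn1, Ccn2 and Ccn5 were called lower, against 6.45% of genes summed in that way, and Ccn3 went from -0.12 to -0.35 (interval -0.63 to -0.080).

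Peaks of other genes in the same neighbourhoods were less uniform. They were also weaker, with a median density in NC of 25.2 against 49.5 over the members, and counting error is larger at weak peaks. Within 100 kb of the 5 TSSs lay 45 further peaks, 34 of them below 0, with 8 (17.8%) called lower, 1 called higher and a median of -0.24, against 63.7% below 0, 13.5% called lower and a median of -0.13 over all peaks. The 8 were 2 in the body and past the 3′ end of Ccn2 (above), 2 intergenic peaks nearest to Gm17501, 53.0 kb and 53.6 kb upstream of Ccn1, 2 in intron 41 of Tg upstream of Ccn4 and 2 intergenic peaks nearest to Ada upstream of Ccn5. Beyond 10 kb from the TSSs, 6 of 41 flanking peaks (14.6%) were called lower. The peak called higher, intergenic and nearest to Ddah1 55.6 kb upstream of Ccn1, had 46.0 in NC and 71.8 in SiPiezo2 (log2 ratio 0.63, interval 0.24 to 1.02). The median of the flanking peaks by locus was -0.014 at Ccn2, -0.20 at Ccn4, -0.28 at Ccn1 and -0.50 at Ccn5, with a single flanking peak, at -0.24, near Ccn3. Around Ccn2 flanking peaks thus lay on both sides of 0, whereas around Ccn5 flanking peaks were low as well. No test of this difference was made.

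Genes that act with the family were read from lists, for each of which the share called lower can be set against 6.21% of all genes. Receptors and binding partners had 15 of 16 genes with a peak and 0 called lower or higher. Their median was -0.15, and they ran from -0.37 at Itga6, an integrin subunit that binds CCN1, to 0.24 at Itgb2. Of the 11 of 12 genes with a peak among regulators of Ccn1 and Ccn2 transcription, 1 was called lower, Tead3 (log2 ratio -0.60), the median was -0.13, and the highest was Smad3, a mediator of TGF-β signalling, at 0.21 (density 570 in NC and 658 in SiPiezo2).

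Genes of kindred function had lower medians than these lists. Of 14 other YAP/TAZ-TEAD target genes 2 were called lower and 12 were below 0, with a median of -0.30. Among all 16934 genes with a peak, 10596 were below 0. Ankrd1, which encodes a stretch-responsive ankyrin repeat protein and was named after its value was seen, was called lower, with 251 in NC and 158 in SiPiezo2 (log2 ratio -0.67, interval -0.89 to -0.45), and the highest of the list was Ajuba at 0.19. Among other matricellular genes, 7 of 8 had a peak, 2 were called lower and the median was -0.51, where the median of the 5 CCN genes summed in the same way was -0.65. Thbs1, which encodes the TGF-β-activating thrombospondin, had 446 in NC and 184 in SiPiezo2 (-1.28, interval -1.47 to -1.09), Tnc, also called lower and named after its value was seen, had -0.60, and Tnxb lay at the other end at 0.40 (interval 0.20 to 0.59). The median of all genes was -0.093.

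The scaling of the libraries set the size of these values. The authors' normalization removes a log2 ratio that changes with density, with a slope of 0.17 per unit of mean log2 density. When recovered reads were instead brought to the same total, Ccn2 went from -0.65 to -0.94 and Ccn1 from -0.90 to -1.004, while all peaks had a median of 0.021. With densities at the same total, Ccn2 at -0.56 and Ccn5 at -0.58 came inside 1.5-fold, as they did with median-of-ratios scaling (-0.51 and -0.53), and the median of all peaks moved from -0.13 to -0.050 and 0. Ccn1 stayed past 1.5-fold in all settings that gave it a value; none of its peaks was called in both libraries, so that setting gave none. With the Gm15270 peaks Ccn2, at -0.94, lay below Ccn1, and Ccn3 changed sign, to 0.018 with median-of-ratios scaling and 0.028 with reads at the same total. Under both density scalings 10 or 11 of the 30 peaks were called lower, against 8.35% and 9.97% of all peaks.

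**Figure D5:**
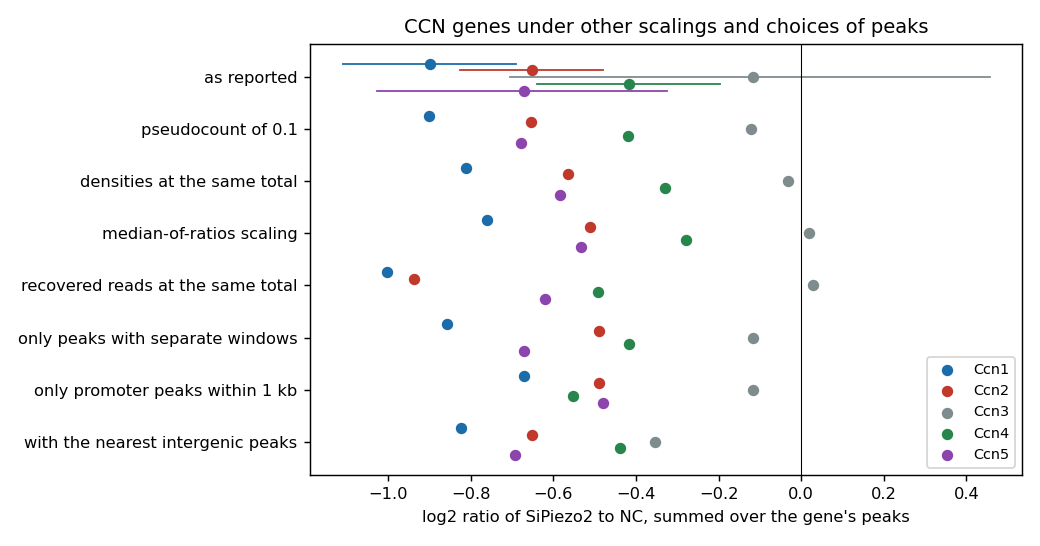
Log2 ratio of each CCN gene, summed over its peaks, as reported (lines, 95% counting intervals) and under other scalings and choices of peaks. Within the 8 settings plotted, Ccn1 is the lowest gene, Ccn2 runs from -0.94 to -0.49, and Ccn3 runs from -0.12 to 0.028 but for -0.35 with its intergenic peaks; unscaled reads, where Ccn2 is at -1.68 and Ccn3 at -0.70, and the settings with Gm15270 peaks, with peaks called in both libraries and by peak strength are not plotted.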

How the data were processed

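Accessibility was measured by ATAC-seq in 1 NC and 1 SiPiezo2 library. According to the study's methods reads were adapter-trimmed, aligned with bwa (BWA 0.7.12 in the submitters' processing notes), stripped of duplicates with Picard and passed to MACS2; these methods describe minced tissue, whereas the labels name primary fibroblasts. The deposited table holds, per peak, a normalized signal (read density) for each library and a mean log2 density, both made by the authors. The methods state that peaks shared by samples were counted with featureCounts and compared with an R package for counts; which tool made the deposited densities is not given in the sources used here. Columns with the authors' log2 fold changes and p-values were not used.

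Log2 ratios used a pseudocount of 1. Reads were recovered by finding the slope and intercept that make them whole in both libraries (100% of peaks within 0.05), taking it that 1 had been added per window of 2000 bp. Procedures were tested on simulated data made with these same assumptions and counting error only, which cannot show whether the assumptions hold for the libraries. With 1 library per condition no test was made. Named genes were all members, the extremes of each list and genes with a flanking peak past 1.5-fold. 1 item that this rule names is not reported here. The members and lists were chosen with earlier results of these data known. Alternatives covered the pseudocount, scaling, threshold, peak strength and choice of peaks. Scripts ran in Python 3.11.15 with scipy 1.17.1 for intervals, pandas 2.3.3 and numpy 2.4.6 for tables, and matplotlib 3.10.9 for plots.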

Additional observations from a re-analysis of the deposited data

How the results depend on the processing

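With 1 library per condition, all values compare libraries and cannot be told apart from differences between cultures. No paired analysis was possible because each condition has 1 library. Recovered reads without scaling, which keep the lower read number of SiPiezo2, gave -1.75 for Ccn1, -1.68 for Ccn2, -1.23 for Ccn4 and -1.36 for Ccn5, with 29 of 30 peaks called lower, a median of -1.235 and 60.9% of all peaks called lower. With reads at the same total Ccn2 was -0.94, as it was with the body and downstream peaks given to Gm15270. The Ccn1 promoter alone gave -0.67. The median of the CCN peaks was -0.40 with densities at the same total and -0.35 with median-of-ratios scaling. Of the 16 peaks called in both libraries 4 were lower, a count added after seeing the data. Past 2-fold, 2 peaks were lower, against 2.76% of all peaks, with a Ccn1 peak at the limit (-0.997, and -1.008 with a pseudocount of 0.1), and 5 of the 11 peaks with a member's symbol were lower past 1.5-fold (13.5% of all peaks), a setting also added after seeing the data. With only peaks whose windows are separate, Ccn2 kept its promoter peak and came inside 1.5-fold at -0.49, as it did with its promoter peak alone. Among peaks with the gene's own symbol, Ccn5 came inside 1.5-fold at -0.48 with only peaks called in both libraries, only promoter peaks or only the strongest peak, and Ccn2 at -0.49 with only the strongest peak. In all, 67 values for genes, counts and the median, those of the lost calls included, stayed within the gene's counting interval, within 1.5 times for the counts, or within the standard error over the peaks for the median. A further 14 such values moved past these limits. A median peak of the table held 36 reads in SiPiezo2, which limits what can be said of weak peaks.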
